A study of Arabidopsis thaliana with 12 samples.

Results

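Wild-type Arabidopsis thaliana seedlings of the accession Columbia (Col) were compared at an early and a late time after dawn, both in darkness. The comparison used the 6 arrays titled as Col at the early or the late time, 3 per group, of 12 arrays in all; the other 6 came from CCA1-34, an arrhythmic line that overexpresses the clock factor CCA1. All seedlings were raised on sucrose medium under red and blue light for 4 short days of 8 h light and 16 h darkness. They then entered a regime of 160 min light pulses and 320 min darkness, labelled as 3 days. Col early was harvested at 280 min after dawn and Col late at 1240 min, in each case 120 min after the lights went off. Each group had 1 array from seedlings 5, 6 and 7 days old, numbered replicate 1, 2 and 3, so the replicate number also stands for age and day of harvest. It may also stand for days already spent under the pulses, which the labels do not give by age. Whole seedlings grown together were harvested. The labels do not say whether the dishes of different days were sown independently. The p-values therefore reflect only how much arrays vary within groups. The main fit pooled that spread over all 12 arrays, CCA1-34 included. Per the series' design text, Col seedlings were growing in darkness at the early time and not at the late time. Growth, time of day and the number of light pulses already received that day cannot be told apart in this comparison.

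The plant circadian clock is a set of transcription factors that repress one another in turn through the day, with CCA1 and LHY around dawn, PRR proteins through the day, and GI, TOC1 and the evening complex towards night. PIF4 and PIF5, basic helix-loop-helix factors, promote elongation of the hypocotyl in darkness by activating genes of auxin synthesis and response. The clock limits when their transcripts accumulate, and light degrades the PIF proteins through phytochrome.

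Values were deposited log2 values from RMA (robust multi-array average), and every level or difference below is on the log2 scale, so that a difference of 1 is a doubling. Array medians in Col lay between 4.03 and 4.09. Col early replicates 1 and 2 correlated across probe sets with r = 0.985, while Col early replicate 3 stood apart from both, with r of 0.962 and 0.968. Col late replicates correlated with r between 0.969 and 0.986. As labelled whole seedlings should, the arrays held shoot and root transcripts: RBCS1A, the Rubisco small subunit, lay between 12.81 and 12.99, and CASP1, a protein of the root endodermis, between 7.13 and 8.84. The mean of 8 leaf markers ranged from 8.48 to 8.67 early and from 8.37 to 8.80 late. The mean of 17 root markers ranged from 4.33 to 5.18 early and from 4.37 to 5.40 late, with the root-tip factors PLT1 and PLT2 below 2.8 in every Col array. The mean of 14 seed and embryo markers ranged from 4.12 to 5.23 early and from 4.25 to 5.81 late. In bulk tissue, fewer cells of a type and less RNA per cell cannot be told apart.

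AT1G73480, annotated as a member of the alpha/beta hydrolase family, was the only transcript past the adjusted threshold, and its level was higher at the early time. It stood at 6.28, 6.21 and 6.00 in Col early replicates 1, 2 and 3 and at 3.42, 3.62 and 3.46 in the Col late replicates, a difference of 2.66 (SE 0.271, limma adjusted p = 0.0293 over 22746 probe sets). The lowest early array was 2.37 above the highest late array, and the early-minus-late difference was 2.86, 2.58 and 2.53 at 5, 6 and 7 days. This was 1 probe set of 22746 (0.0044%), and the next lowest adjusted p was 0.083. The call was lost when any 1 of the 6 Col arrays was left out, with adjusted p between 0.082 and 0.263, and without CCA1-34 late replicate 1 (0.105). It was also lost in a limma fit to the 6 Col arrays alone with the day as a replicate block (adjusted p = 0.390), and held in that fit without the block (0.00996). The late values lay below 4.07, the median of all values. Signal above background was not tested at so low a level, so the size of the difference is less certain than its SE.

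At an unadjusted p under 0.05, 606 probe sets (2.66%) were higher early and 624 (2.74%) lower. The 3 early arrays lay above the 3 late arrays for 1169 probe sets (5.14%) and below them for 858 (3.77%), together 8.91%. Over all probe sets 52.6% of the differences were above 0 and their median was 0.01. All differences other than that of AT1G73480 are given as measured levels that did not pass the adjusted threshold. No detection calls were used. A level below about 4.07, the median of all values, is called too low to tell from background. This mark was chosen and is not a measured detection limit.

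The size of the difference between the times varied between the days, each with 1 early and 1 late Col array. An effect of the day therefore cannot be told apart from variation of single arrays. At 5 days 277 probe sets were at least 1 higher early and 471 at least 1 lower, at 6 days 139 and 104, and at 7 days 988 and 962. The SD of the differences over probe sets was 0.419, 0.318 and 0.628. Across probe sets the differences at 5 and 6 days correlated with r = 0.302, those at 5 and 7 days with r = -0.018 and those at 6 and 7 days with r = -0.157; probe sets are not independent replicates, and each pair of days shares no array. Genes with a large difference on every day were therefore few: 16 probe sets were at least 1 higher early on each of the 3 days and 6 at least 1 lower, and 20 of these 22 pair with 1 locus.

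**Figure D1:**
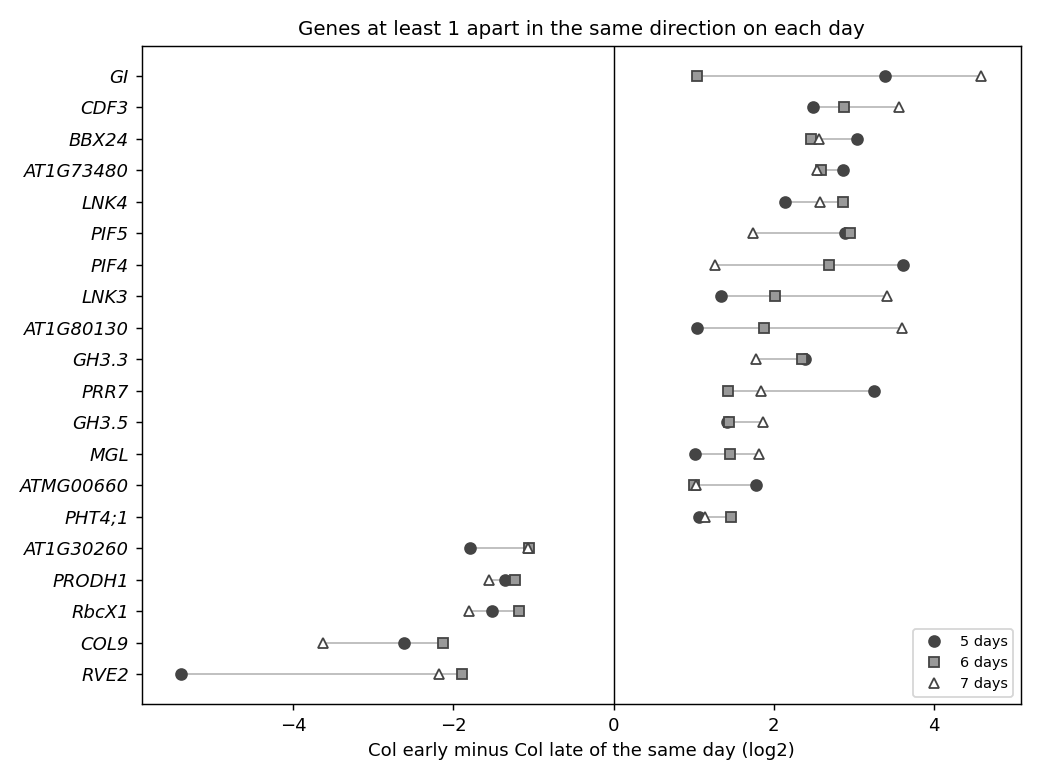
Early-minus-late difference in Col (log2, x axis) for the 20 genes at least 1 apart in the same direction on each day; filled circles are 5 days, grey squares 6 days and open triangles 7 days, 1 pair of arrays per point. The 15 genes right of 0 include GI, CDF3, BBX24, PIF4 and PIF5, the 5 left of 0 include COL9 and RVE2, and AT1G73480 has the closest 3 points among the genes more than 2 higher.

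Besides AT1G73480, the genes higher on every day were GI, CDF3, BBX24, LNK3, LNK4, PRR7, PIF4, PIF5, GH3.3, GH3.5, MGL, PHT4;1, AT1G80130 and ATMG00660, and the lower ones were RVE2, COL9, RbcX1, PRODH1 and AT1G30260. This grouping by day was made after the values were seen. MGL, which encodes methionine gamma-lyase, an enzyme of methionine breakdown, stood at 7.14, 7.73 and 7.74 early against 6.12, 6.27 and 5.93 late (difference 1.43, SE 0.219, adjusted p = 0.173). PHT4;1, a phosphate transporter of the thylakoid membrane, stood at 7.10, 7.13 and 7.32 against 6.03, 5.66 and 6.18 (difference 1.23, SE 0.211). The groups did not overlap for either gene, and the spread within each group was smaller than the difference between the times. ATMG00660, an open reading frame of the mitochondrial genome, stood at 6.00, 5.48 and 5.63 against 4.23, 4.47 and 4.60 (difference 1.27, SE 0.179, adjusted p = 0.149).

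Among morning-phased clock genes all 4 coactivators of the LNK family had early arrays above every late array, against 5.14% of all probe sets. Their differences ran from 1.44 to 2.53 with a median of 2.34, and this subgroup was singled out after its values were seen. LNK proteins bind RVE factors and help to activate evening genes. LNK4 stood at 4.78, 5.24 and 6.10 early and at 2.64, 2.38 and 3.52 late (difference 2.53, SE 0.499, adjusted p = 0.382). LNK3 stood at 3.59, 4.39 and 5.36 against 2.25, 2.38 and 1.95, and LNK1 at 4.48, 3.32 and 6.62 against 2.33, 2.51 and 2.29. The late LNK1, LNK3 and LNK4 levels were among those too low to tell from background. LNK2 differed least of the family, with 4.88, 6.38 and 5.04 against 3.70, 3.68 and 4.59, of which 3.70 and 3.68 were also that low. PRR7, a daytime repressor of CCA1 and LHY, stood at 5.99, 4.62 and 6.02 early and at 2.74, 3.19 and 4.18 late (difference 2.17, SE 0.530), and its late level was higher at each greater age, although the groups stayed apart.

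RVE2, a Myb factor of the CCA1 family, went the opposite way. It stood at 3.36, 5.80 and 5.49 early and at 8.75, 7.70 and 7.66 late (difference -3.15, SE 0.644, adjusted p = 0.394). The groups did not overlap, and the gap was widest at 5 days, where RVE2 was 5.39 lower on the early array. RVE1, a relative that links the clock to auxin, stood at 2.44, 4.04 and 4.40 against 5.78, 4.36 and 4.85, and the groups overlapped. RVE4, RVE6 and RVE8, the activating branch of the family, differed by -0.61, 0.12 and 0.03 with overlapping arrays, and a second probe set of RVE8 gave -0.12. RVE7 had no probe set of its own. The probe set it shares with AT3G10113 stood at 4.80, 5.10 and 6.10 early and at 2.56, 2.80 and 4.31 late (difference 2.11, SE 0.721). Its groups did not overlap.

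CCA1 and LHY themselves showed no common difference between the times. CCA1 stood at 2.47, 4.21 and 6.37 in Col early replicates 1, 2 and 3 and at 3.71, 2.66 and 3.43 late (difference 1.08, SE 0.777). LHY stood at 3.87, 5.34 and 6.74 early and at 6.59, 4.64 and 4.92 late (difference -0.06, SE 0.891). Both transcripts were lowest in the early array at 5 days and highest in that at 7 days, by 3.89 for CCA1 and 2.86 for LHY, a wider range within the group than between the times. Without Col early replicate 3 the differences were 0.07 and -0.77. Over the 12 measured morning-phased genes 8 were higher early and 4 lower, and the median was 0.60. Of these 5 lay above and 1 below every late array, against 5.14% and 3.77% of all probe sets. That median was -0.81 at 5 days, 0.75 at 6 days and 1.83 at 7 days, and -0.11 without Col early replicate 3. The counts of 5 and 1 then became 5 and 2, against 12.2% and 9.77%.

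**Figure D2:**
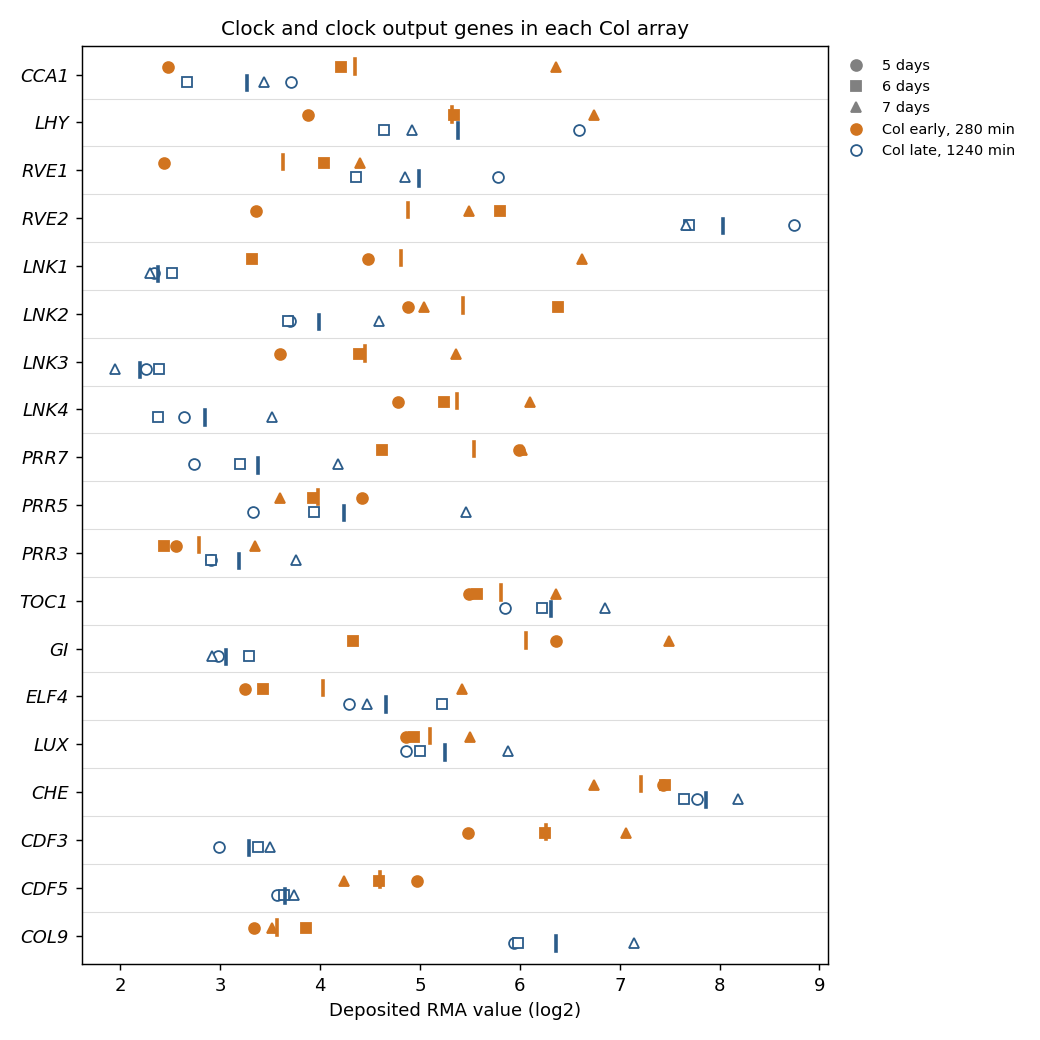
Deposited log2 value (x axis) of 19 clock and clock output genes in each Col array; filled orange symbols are Col early, open blue symbols Col late, the symbol shape gives the age in days and the short bar is the mean of 3 arrays. The early symbols lie wholly right of the late ones for LNK1 to LNK4, PRR7, GI, CDF3 and CDF5 and wholly left of them for RVE2, CHE and COL9, while those of CCA1 and LHY spread across the late ones.

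Of the 11 evening-phased clock genes GI alone was higher early, and the other 10 were slightly lower. GI, which acts in flowering time control and stabilizes the photoreceptor-like protein ZTL, stood at 6.37, 4.33 and 7.50 early and at 2.98, 3.29 and 2.92 late (difference 3.00, SE 0.626, adjusted p = 0.430). The 3 late arrays agreed within 0.37, while the early arrays spread over 3.17, with the lowest at 6 days. CHE, a TCP factor that represses CCA1, stood at 7.44, 7.46 and 6.74 against 7.77, 7.64 and 8.18 (difference -0.65, SE 0.245), with no overlap. TOC1, the repressor at the centre of the evening loop, stood at 5.49, 5.57 and 6.36 against 5.85, 6.22 and 6.86; on each day the early array was the lower one, but the groups overlapped (difference -0.50, SE 0.295).

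The remaining evening genes had small differences. ELF4 and LUX, which belong to the evening complex, differed by -0.63 and -0.15, the pseudo-response regulators PRR3 and PRR5 by -0.41 and -0.26, and the F-box proteins ZTL, FKF1 and LKP2 by -0.31, -0.23 and -0.14. The list median was -0.31, and it had the same sign on all 3 days (-0.33, -0.19 and -0.38). In this list of 11 genes 1 lay above and 1 below every late array, against 5.14% and 3.77% of all probe sets. Without Col early replicate 3, a choice made after the data were seen, 6 lay below every late array. The share of all probe sets on the same 2 against 3 arrays was 9.77%.

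Output genes under clock control held some of the largest differences. CDF3, a cycling Dof factor of the family that represses CO, stood at 5.48, 6.25 and 7.06 early and at 2.98, 3.38 and 3.50 late (difference 2.98, SE 0.500, adjusted p = 0.261). CDF5, of the same family, stood at 4.96, 4.59 and 4.24 against 3.56, 3.64 and 3.74 (difference 0.95, SE 0.315). The groups stayed apart for both genes, but with age the early level of CDF3 was higher and that of CDF5 lower. CDF1 and CDF2 differed by 0.77 and 0.33 with overlapping arrays. COL9, a CONSTANS-like factor that delays flowering, stood at 3.33, 3.85 and 3.52 early and at 5.95, 5.99 and 7.14 late (difference -2.79, SE 0.522, adjusted p = 0.348), so that every late array was more than 2 above every early one. CO and FT, the photoperiod integrators, lay between 1.99 and 2.61 in every Col array, within the range called too low to tell from background. GRP8, an RNA-binding protein of a slave oscillator, differed by 0.55, with the nearest arrays only 0.02 apart, and its relative GRP7 by 0.37 with overlap. Of the 11 output genes 7 were higher and 4 lower, with a median of 0.37.

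Among 29 photoreceptors and light regulators 20 were higher early and 9 lower, with a median of 0.15, where 52.6% of all differences were above 0. Of these 3 lay above and 2 below every late array, against 5.14% and 3.77% of all probe sets. BBX24, a B-box factor that counteracts HY5 in seedling photomorphogenesis, was the member with the largest difference. It stood at 8.17, 8.60 and 9.62 early and at 5.13, 6.14 and 7.06 late (difference 2.69, SE 0.541, adjusted p = 0.388). In both groups the level was higher at each greater age, so that the difference was 3.04, 2.46 and 2.56 on the 3 days. BBX22, a B-box activator of light responses, stood at 6.23, 5.87 and 5.64 against 4.88, 5.16 and 5.23 (difference 0.82, SE 0.219). BBX20, of the same subfamily, was instead lower early, at 3.25, 2.66 and 2.71 against 3.54, 3.44 and 3.26 (difference -0.54, SE 0.181), at a level too low to tell from background.

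PHYB, the main red-light receptor of light-grown seedlings, stood at 6.77, 6.93 and 7.08 early and at 6.58, 6.29 and 6.17 late (difference 0.58, SE 0.120, adjusted p = 0.421). The groups were apart but close, by 0.19 at the nearest arrays. PHYA, PHYC, PHYD and PHYE differed by 0.52, 0.05, 0.15 and 0.17, and the cryptochromes CRY1 and CRY2 by -0.28 and -0.29, all with overlap. HY5, COP1 and SPA1, central to light signalling, differed by 0.16, -0.08 and -0.05, and a second probe set of SPA1 gave 0.01. ELIP1, a chloroplast protein induced by strong light, ranged from 2.85 to 7.77 within the early group alone. Without Col early replicate 3 the list median was -0.04 and 13 of 29 were higher.

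PIF4 and PIF5 were both higher early on each day, by the smallest amount at 7 days. PIF4 stood at 6.52, 6.27 and 6.49 early, within 0.25 of one another, and at 2.90, 3.58 and 5.23 late (difference 2.52, SE 0.463). PIF5 stood at 6.92, 7.17 and 7.88 early and at 4.04, 4.22 and 6.13 late (difference 2.53, SE 0.494). At 7 days, where the late level of both was highest, the differences were 1.27 for PIF4 and 1.74 for PIF5, against 3.62 and 2.88 at 5 days and 2.69 and 2.95 at 6 days. PIF3, which acts with them in darkness, stood at 6.75, 6.83 and 5.71 against 5.68, 5.53 and 5.46; the groups did not overlap, yet at 7 days the early array exceeded the highest late one by only 0.03 (difference 0.87, SE 0.446).

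The rest of the bHLH list was mixed. PIF1, which represses germination and greening, differed by -0.01, and PIF8 stood at 3.52, 5.23 and 6.43 early against 6.94, 5.88 and 6.19 late. PAR1 and HFR1, which lack DNA-binding activity of their own and restrain PIFs, reversed between the days. PAR1 stood at 6.32, 6.67 and 3.57 early and at 4.27, 4.95 and 7.40 late, so that it was higher early at 5 and 6 days and 3.83 lower at 7 days, and HFR1 did likewise, with day differences of 1.27, 0.86 and -1.28. PRE1 and PRE2, growth-promoting members of the family, differed by 1.43 and 0.95 with overlap. Of 15 measured genes 11 were higher and 4 lower, with a median of 0.59, and 3 lay above every late array, against 5.14% of all probe sets.

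Taken as a list, genes that PIFs and shade induce were higher early at 5 and 6 days and not at 7 days. All 16 measured shade- and PIF-induced genes had a higher early mean, with a median of 0.80, but the median difference was 1.50 at 5 days, 1.18 at 6 days and -0.16 at 7 days. In 10 of the 16 both younger early arrays lay above every late array while Col early replicate 3 did not, a pattern that 7.1% of all probe sets had. The same held for 9 of 22 auxin-induced genes, 8 of 20 ethylene genes and 8 of 25 gibberellin genes, and for 0 of 12 morning-phased clock genes. This pattern was defined after the values were seen, and the shade list shares IAA19 and IAA29 with the auxin list and ACS8 with the ethylene list.

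ST2A, which encodes a sulfotransferase and is a strong PIF target, showed it clearly, with 7.01, 6.94 and 3.63 early and 3.97, 4.23 and 3.17 late (difference 2.07, SE 0.848). IAA29, an Aux/IAA repressor of auxin response, stood at 6.92, 7.62 and 3.42 against 3.64, 4.21 and 5.92 (difference 1.39, SE 1.14), so that at 7 days the late array was the higher one by 2.50. IAA19, of the same family, stood at 7.43, 7.26 and 5.16 against 4.94, 5.24 and 5.27. In all of them Col early replicates 1 and 2 were above every late array, and Col early replicate 3 was below the highest late array. ACS8, an ethylene synthesis gene, and ARGOS, which promotes organ growth, had the same shape, with 5.08, 5.65 and 3.23 against 2.89, 2.83 and 3.37 for ACS8 and 5.20, 5.67 and 2.96 against 2.77, 3.19 and 2.83 for ARGOS. ATHB2, an HD-Zip factor of shade avoidance, stood at 5.70, 5.86 and 4.32 against 3.83, 4.28 and 4.83.

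**Figure D3:**
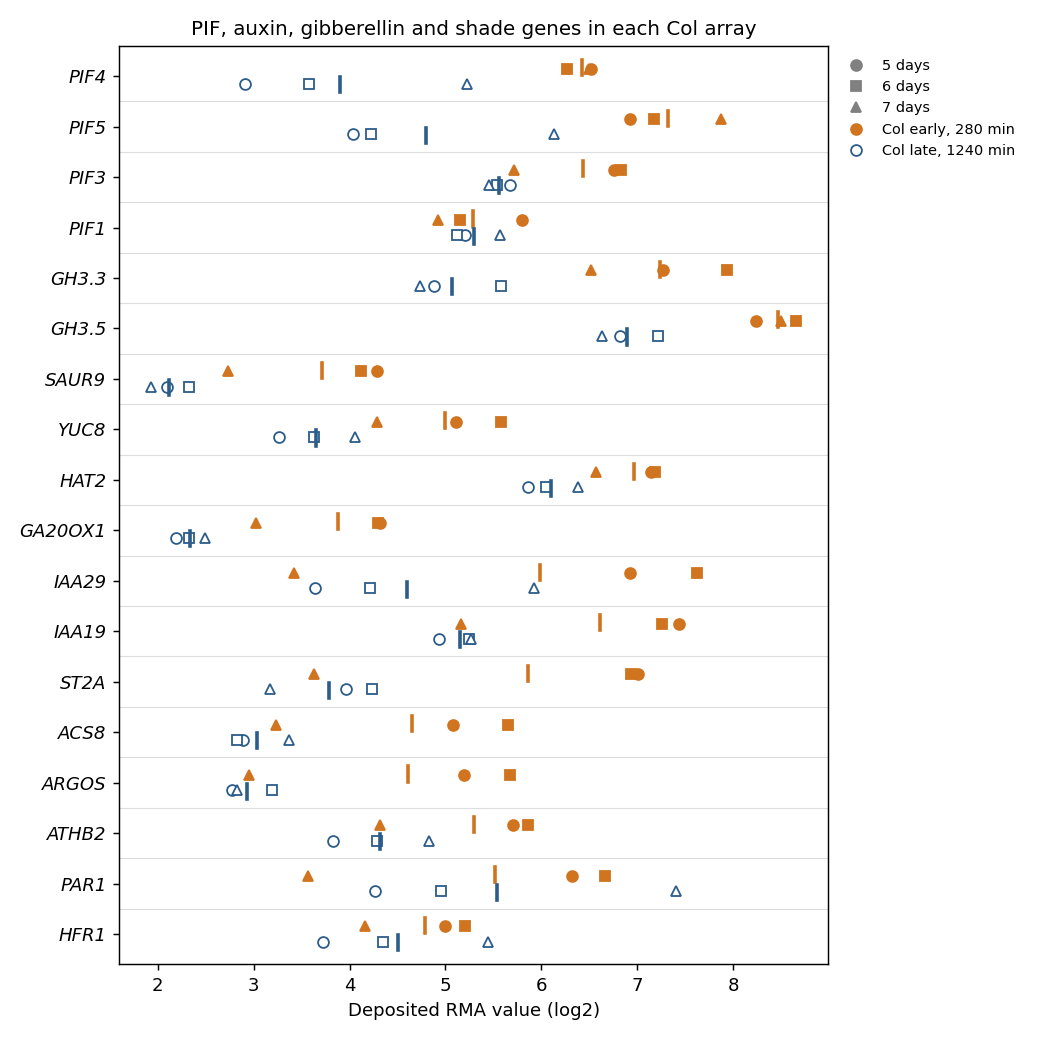
Deposited log2 value (x axis) of 18 PIF, auxin, gibberellin, ethylene and shade genes in each Col array; filled orange symbols are Col early, open blue symbols Col late, the symbol shape gives the age in days and the short bar is the mean of 3 arrays. For ST2A, IAA29, IAA19, ACS8, ARGOS and ATHB2 the orange triangle, 7 days, lies among or left of the late symbols, while for PIF4, PIF5, GH3.3 and GH3.5 it lies right of all of them.

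A few genes of auxin synthesis and response stayed apart on all 3 days. GH3.5 and GH3.3 encode enzymes that conjugate auxin to amino acids. GH3.5 stood at 8.24, 8.66 and 8.50 early and at 6.82, 7.21 and 6.63 late (difference 1.58, SE 0.277, adjusted p = 0.273), and GH3.3 at 7.27, 7.93 and 6.52 against 4.88, 5.58 and 4.74 (difference 2.17, SE 0.579). YUC8, an auxin synthesis enzyme that PIF4 activates, stood at 5.11, 5.58 and 4.29 against 3.27, 3.63 and 4.06 (difference 1.34, SE 0.376). The small auxin-up gene SAUR9 stood at 4.29, 4.12 and 2.73 against 2.10, 2.33 and 1.93, and HAT2, an auxin-responsive HD-Zip factor, at 7.15, 7.18 and 6.57 against 5.87, 6.05 and 6.38. The groups did not overlap for any of these, although in YUC8, SAUR9 and HAT2 the array at 7 days was the lowest of the early group. The GH3 relatives GH3.1 and GH3.6 differed by 0.79 and 0.32. None of the 11 Aux/IAA genes was apart between the groups, against 8.91% of all probe sets, although 10 of the 11 had a higher early mean. Of 22 auxin-induced genes 20 were higher early, with a median of 0.55, and 4 lay above every late array, against 5.14% of all probe sets. Without Col early replicate 3 that count was 13, and the medians were 0.89 for auxin, 1.01 for shade and 0.95 for bHLH genes; on those arrays 12.2% of all probe sets lay above every late array. In Col early replicate 3 other lists moved too: its mean over 16 handling, touch and heat genes was 4.42 against 3.59 to 3.66 in the other early arrays, and its mean over 24 starvation genes was 4.87 against 5.92 and 6.18. Their part in the list values was not tested.

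Gibberellin genes differed at single steps of the pathway. GA20OX1, which encodes an enzyme of the late synthesis steps, stood at 4.32, 4.29 and 3.02 early and at 2.19, 2.33 and 2.50 late (difference 1.54, SE 0.375). GA3OX1, the final activating step, stood at 7.20, 5.41 and 4.91 against 5.26, 4.63 and 3.83; it was higher early by 0.79 to 1.94 on each day, while both groups were lower at each greater age, so that they overlapped. GA2OX6, which inactivates gibberellin, was also higher early, at 4.29, 4.34 and 4.26 against 3.58, 3.78 and 2.96 (difference 0.85, SE 0.332). The receptor gene GID1A was lower by 0.34, with the nearest arrays only 0.004 apart, and the 5 DELLA repressor genes differed by 0.01 to 0.33. GASA6, a small cysteine-rich protein induced by gibberellin, stood at 9.58, 9.91 and 7.77 against 10.02, 9.98 and 10.87. Of 25 genes 19 were higher and 6 lower, with a median of 0.13.

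Brassinosteroid genes showed no common direction over the days. BKI1, an inhibitor of the receptor BRI1, stood at 4.29, 4.19 and 4.51 early and at 5.03, 4.54 and 5.33 late (difference -0.64, SE 0.182), without overlap. The synthesis genes DWF4, CPD and ROT3 differed by -0.23, -0.22 and -0.31 and the receptor BRI1 by -0.01. Of 13 genes 5 were higher and 8 lower, with a median of -0.21, which was 0.13 without Col early replicate 3, and the medians by day were 0.16, 0.13 and -0.58.

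Cell wall genes showed no common direction. Of 33 genes for expansins, xyloglucan endotransglucosylases and cellulose synthesis 17 were higher and 16 lower, with a median of 0.02. EXPA16, an expansin, stood at 3.80, 4.88 and 3.46 early and at 4.94, 4.99 and 6.92 late (difference -1.57, SE 0.596), and XTH27 was lower by 0.75, both without overlap. COB, which orients cellulose deposition, was higher by 0.28 without overlap (8.65, 8.70 and 8.83 against 8.45, 8.52 and 8.38). The cellulose synthase genes CESA1, CESA3 and CESA6 of the primary wall differed by 0.18, 0.16 and 0.27, and XTH4, a xyloglucan endotransglucosylase, by -0.07. XTH6, which was not in the list, stood at 5.59, 6.12 and 6.00 against 7.42, 6.79 and 8.20 (difference -1.57, SE 0.584). Of 13 cell cycle genes 5 were higher and 8 lower, with differences between -0.33 and 0.22. None of them was apart, against 8.91% of all probe sets.

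Cytokinin response regulators of type A, early response genes that dampen cytokinin signalling, had a lower early mean in 8 of 9 measured members, none of which passed the adjusted threshold. Of these 7 were lower on each of the 3 days, against 11.7% of all probe sets, and 4 lay below every late array, against 3.77%. The median was -0.45, and this subgroup was singled out after its values were seen. ARR7 stood at 3.32, 3.99 and 4.43 early and at 5.02, 4.95 and 5.91 late (difference -1.38, SE 0.541). ARR4 stood at 7.13, 7.11 and 7.11 against 7.60, 7.96 and 7.55 (difference -0.59, SE 0.240), and ARR9 at 6.21, 6.33 and 5.99 against 6.60, 6.44 and 6.84. For ARR4 the 3 early arrays agreed within 0.02, and all 3 late arrays were higher. ARR16 was lower by 0.82, and ARR3 was the member that went the other way (0.21, with overlap). The receptor genes AHK2, AHK3 and AHK4 differed by -0.16, -0.10 and -0.30. CKX5, a cytokinin oxidase that is also in the shade list, was higher by 0.72, with the nearest arrays 0.07 apart. Of 6 CKX genes 5 were higher, by at most 0.72. Over the whole list of 19 genes 6 were higher and 13 lower, with a median of -0.16.

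Of 24 genes of the response to abscisic acid, cold and dehydration 17 had a higher early mean and 7 a lower one, and none passed the adjusted threshold. ABF3, a bZIP factor that binds abscisic acid response elements, stood at 6.83, 6.90 and 7.37 early and at 6.02, 5.96 and 5.87 late (difference 1.08, SE 0.336). NCED3, the rate-limiting step of abscisic acid synthesis under drought, stood at 4.73, 5.17 and 5.22 against 4.49, 4.25 and 3.60 (difference 0.93, SE 0.370). The phosphatases ABI1 and ABI2, which switch the pathway off, differed by 0.70 and 0.68. All 4 of these genes had arrays that did not overlap and were higher early on each day. HAB1, another phosphatase of the pathway, stood at 5.94, 6.27 and 7.28 against 6.83, 6.04 and 6.24, with overlap. Among target genes RD29A stood at 8.77, 8.51 and 8.75 against 8.43, 8.13 and 6.95, with the separation resting mostly on the late array at 7 days, and ERD10 was higher by 0.35. The cold regulators CBF1 and CBF3 were higher by 0.38 and 0.37, but every Col value lay between 1.98 and 2.83. In the list 9 genes lay above every late array and 0 below, against 5.14% and 3.77% of all probe sets, and the median was 0.30, at 0.25, 0.24 and 0.55 on the 3 days.

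The cold genes COR15A and COR15B differed more between days than between times. COR15A stood at 3.85, 3.48 and 8.99 early and at 4.60, 4.85 and 8.47 late, and COR15B at 3.94, 3.07 and 7.89 against 4.14, 4.38 and 7.13. Both arrays at 7 days were far above the 4 younger ones. KIN1, RAB18 and COR47, which belong to the same response, showed no such split, with ranges of 9.94 to 10.72, 6.44 to 7.80 and 8.02 to 9.57 over the 6 Col arrays. Age, day of harvest and any difference in days of pulses cannot be told apart here.

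BT2, a BTB and TAZ domain protein that responds to sugar, nitrate and the time of day, had the most negative difference among the named genes. It stood at 5.56, 7.85 and 3.35 early and at 8.74, 8.45 and 9.29 late (difference -3.24, SE 1.09, adjusted p = 0.900). The groups did not overlap, but the difference was 5.94 lower at 7 days and only 0.60 lower at 6 days. BT5, of the same family, stood at 2.99, 3.23 and 3.38 against 4.46, 4.19 and 5.54 (difference -1.53, SE 0.438). DIN10, a raffinose synthase gene induced by darkness, stood at 7.57, 7.77 and 5.89 against 7.96, 8.51 and 9.69 (difference -1.64, SE 0.765). PRODH1, the first enzyme of proline breakdown, was lower early by 1.35, 1.23 and 1.56 on the 3 days, while both groups were higher at each greater age, so that the arrays overlapped (4.30, 4.96 and 5.79 against 5.66, 6.20 and 7.35).

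Other starvation genes varied strongly between the days. ASN1, asparagine synthetase and a marker of carbon shortage, stood at 7.69, 7.61 and 3.61 early and at 4.51, 7.40 and 9.41 late, and SEN1 at 9.96, 9.64 and 7.65 against 7.28, 8.88 and 10.85. The class II trehalose phosphate synthase genes TPS8, TPS9 and TPS11 differed by -1.01, -0.86 and -0.83, each with its lowest value in Col early replicate 3. TPS10, the other measured member of that class, differed by only -0.07. Of 24 genes 7 were higher and 17 lower, with a median of -0.24, and the medians by day were 0.20, 0.21 and -1.81. Without Col early replicate 3 the median was 0.07 and 14 of 24 were higher.

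**Figure D4:**
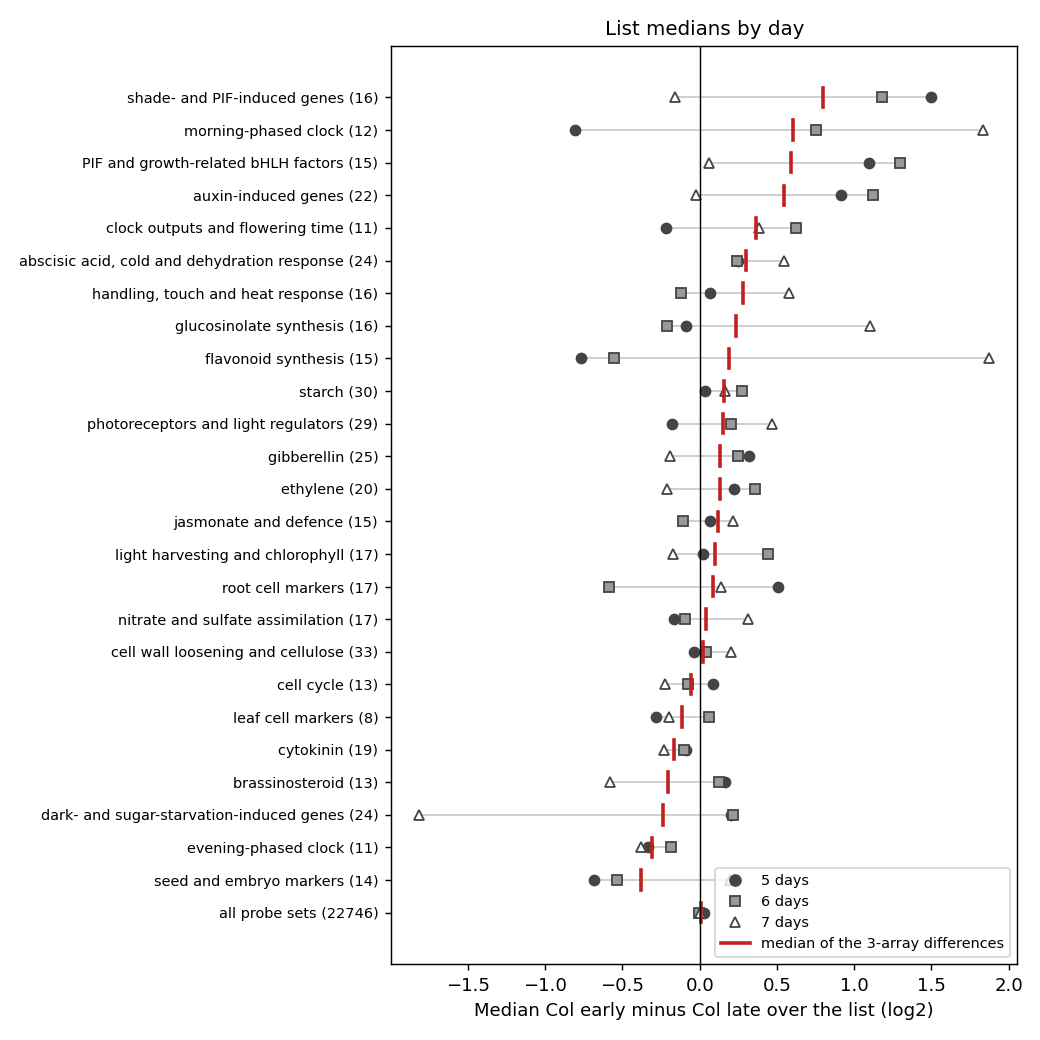
Median early-minus-late difference in Col (log2, x axis) of each gene list, with the number of measured genes in parentheses; symbols give the 3 days and the red bar the median of the differences of group means. The shade, bHLH and auxin lists lie near or above 1 at 5 and 6 days and near 0 at 7 days, the starvation list lies at -1.81 and the flavonoid list at 1.87 at 7 days, and the median over all probe sets stays near 0.

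Starch genes were more often higher than lower at the early time, among them 12 of 15 genes of breakdown, a subgroup formed after the values were seen. ISA3, a debranching enzyme of starch breakdown, stood at 5.53, 5.12 and 5.41 early and at 4.43, 4.66 and 4.64 late (difference 0.78, SE 0.168). DPE1 and DPE2, which process the maltotriose and maltose released at night, stood at 6.82, 6.33 and 6.43 against 5.80, 5.33 and 6.27 and at 8.12, 8.04 and 8.54 against 7.82, 7.84 and 7.79. The groups were apart for all 3. AMY3, an amylase, and SEX4, a glucan phosphatase, differed by 0.73 and 0.75 with overlap. BAM3, the main beta-amylase of leaves at night, went the other way at 5 and 6 days and not at 7 days, with 2.68, 3.21 and 8.33 against 7.06, 5.72 and 7.04. Of 30 genes 21 were higher and 9 lower, with a median of 0.16, where 52.6% of all differences were above 0. Without Col early replicate 3 the median was 0.05 and 18 of 30 were higher. With all arrays 4 of the 30 genes lay above and 0 below every late array, against 5.14% and 3.77% of all probe sets.

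**Figure D5:**
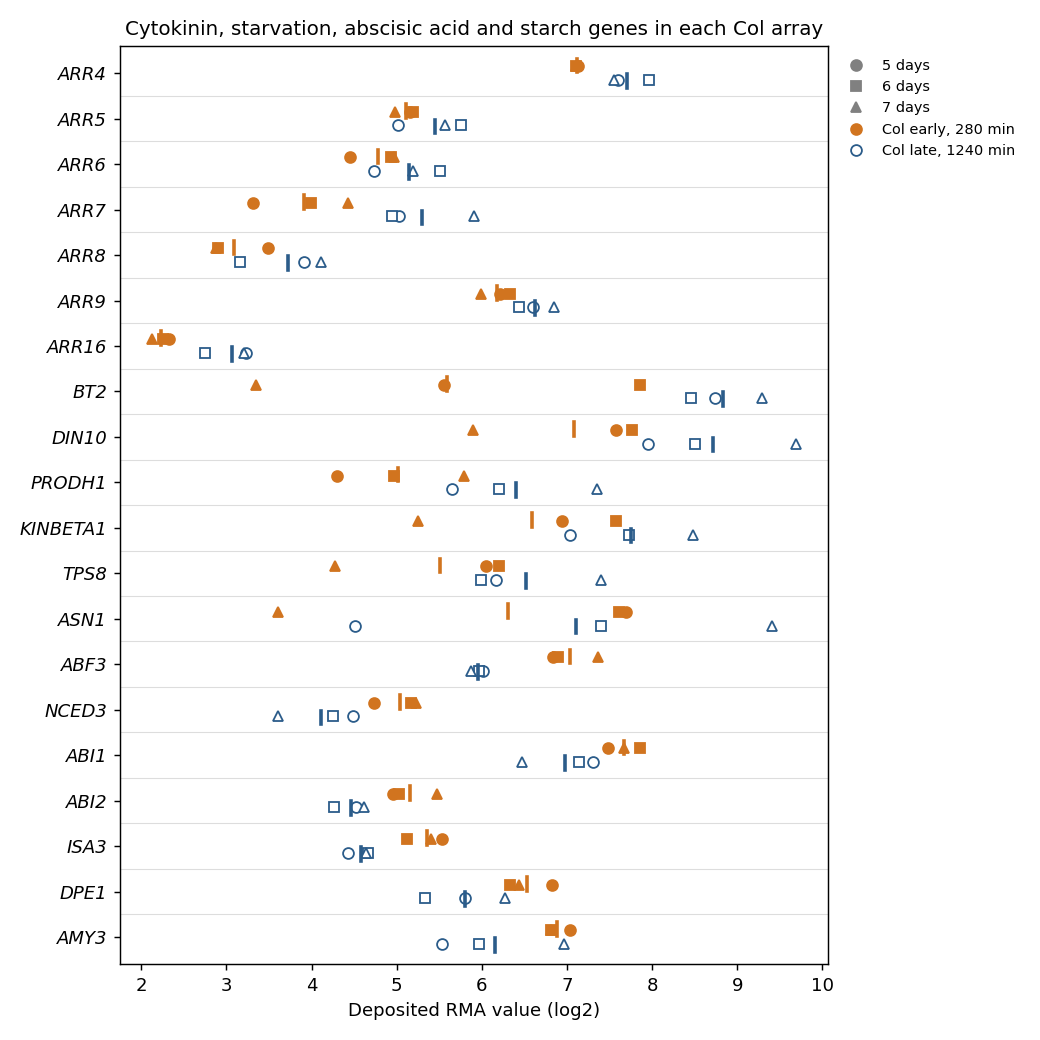
Deposited log2 value (x axis) of 20 cytokinin, starvation, abscisic acid and starch genes in each Col array; filled orange symbols are Col early, open blue symbols Col late, the symbol shape gives the age in days and the short bar is the mean of 3 arrays. The early symbols lie left of the late ones for ARR4, ARR7, ARR9 and ARR16 and right of them for ABF3, NCED3, ABI1, ABI2, ISA3 and DPE1, while TPS8 and ASN1 have their lowest early value at 7 days.

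The flavonoid and glucosinolate lists had their highest median difference at 7 days. The median of 15 flavonoid genes was -0.77 at 5 days, -0.55 at 6 days and 1.87 at 7 days. No flavonoid gene was apart between the groups, against 8.91% of all probe sets. MYB75, which activates anthocyanin synthesis, stood at 3.87, 2.49 and 6.75 early and at 3.77, 2.83 and 2.19 late, and CHS, the first enzyme of the pathway, at 8.32, 6.87 and 8.79 against 9.76, 8.25 and 6.93. Within the late group both were lowest at 7 days, and within the early group both were highest there. The 16 glucosinolate genes had medians of -0.09, -0.21 and 1.10 on the 3 days. BCAT4, which starts chain elongation of methionine, stood at 3.71, 5.48 and 7.34 against 3.75, 6.39 and 5.11. In sulfate assimilation APR1, APR2 and APR3, the adenylylsulfate reductases, each had their highest Col value in Col early replicate 3, at 7.96, 9.28 and 8.06. Over 17 nitrate and sulfate genes the median was 0.04, and NIA2, a nitrate reductase gene, stood at 9.66, 10.65 and 9.78 against 10.67, 10.74 and 10.57.

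Of 17 light-harvesting and chlorophyll genes 12 were higher early and 5 lower, with a median of 0.10 and differences between -0.42 and 2.04. LHCB2.3 was the single member apart, where 5.14% of all probe sets lay above every late array and 3.77% below. It stood at 10.88, 10.78 and 10.50 against 10.20, 9.82 and 9.99 (difference 0.72, SE 0.292). PORA, the protochlorophyllide reductase of dark-grown seedlings, stood at 9.10 in Col early replicate 1 and between 3.59 and 4.59 in the other 5 Col arrays. GAPA, a Calvin cycle enzyme among the leaf markers, was lower early by 0.24 without overlap. RbcX1, a chaperone of Rubisco assembly, stood at 3.85, 4.14 and 4.85 against 5.37, 5.32 and 6.65 (difference -1.50, SE 0.602). WCRKC1, a chloroplast thioredoxin, stood at 4.56, 4.62 and 3.80 against 5.63, 5.61 and 6.87 (difference -1.71, SE 0.418). Both were below every late array in all 3 early arrays.

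Several leading genes belonged to no list. AT1G80130, predicted to encode a tetratricopeptide repeat protein, stood at 5.51, 5.35 and 7.36 early and at 4.47, 3.47 and 3.76 late (difference 2.18, SE 0.555), and AT5G01790 at 5.90, 6.21 and 7.16 against 5.11, 4.51 and 4.09 (difference 1.86, SE 0.327, adjusted p = 0.273). AT5G64120, a class III peroxidase gene, stood at 5.40, 5.10 and 9.00 against 4.85, 4.83 and 3.17. All 3 were apart, and for AT5G64120 the difference was 5.83 at 7 days and under 0.6 on the other days. On the lower side AT5G61590, the AP2/ERF factor DEWAX that represses wax synthesis in darkness, stood at 6.11, 6.54 and 3.87 against 6.84, 7.00 and 8.47 (difference -1.93, SE 0.757). AT1G23390, a Kelch repeat F-box gene, stood at 6.77, 7.08 and 4.55 against 7.60, 7.42 and 8.58, so that its difference too was mainly that of 7 days. AT5G11070 was more even, at 5.98, 6.50 and 6.30 against 7.78, 7.33 and 8.37 (difference -1.57, SE 0.318, adjusted p = 0.388). AT3G15630, AT3G23880, AT1G54740 and AT3G19030 were lower by between 1.50 and 1.87.

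ACS6, an ethylene synthesis gene, stood at 4.01, 4.19 and 4.51 early and at 3.85, 3.79 and 3.83 late (difference 0.41, SE 0.133), and OPR3, of jasmonate synthesis, at 6.39, 6.26 and 6.57 against 6.11, 6.16 and 6.06 (difference 0.29, SE 0.105). In both cases the groups were apart by less than 0.2. Of 20 ethylene genes 14 were higher and 6 lower (median 0.13), and of 15 jasmonate and defence genes 11 and 4 (median 0.12). YUC2, SAUR10 and BAM5 were apart by less than 0.2 at levels under 4.0, and BR6OX1, of brassinosteroid synthesis, was lower by 0.31 between 2.10 and 2.78.

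The same contrast was read in CCA1-34 for genes that led in Col. They were chosen for large differences in Col, so smaller values in the other line would follow from the choice alone. AT1G73480 stood at 6.65, 5.93 and 5.42 in CCA1-34 early and at 5.57, 5.94 and 5.22 in CCA1-34 late, a difference of 0.42, and the interaction of line and time was 2.24 (SE 0.384, limma unadjusted p = 0.000137, adjusted p = 1.0). Over all probe sets limma passed 0 for this interaction and 465 (2.04%) had an unadjusted p under 0.05. In CCA1-34 itself limma passed 0 (0.0%) for early against late, with 382 (1.68%) at an unadjusted p under 0.05. GI, CDF3, BBX24 and LNK4 differed by 0.65, 0.44, 0.43 and 0.65 in CCA1-34 and PIF4 and PIF5 by -0.06 and 0.13. BT2, RVE2 and COL9 differed by -1.96, -0.99 and -1.49 there. None of the interactions of these genes passed the adjusted threshold.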

How the data were processed

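RNA of 12 samples was hybridized to Affymetrix arrays. The authors deposited log2 values made with RMA, per the submitters' processing notes; its version is not given in the sources used here. Array controls (64 of 22810 probe sets) were left out, and 22746 were tested, of which 21361 pair with 1 locus; genes were named from these alone, and 98.5% of them had their locus in NCBI's TAIR10.1 gene table. No genome build is named for the arrays, so no coordinates are given.

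The tests used limma 3.58.1 under R 4.3.3 (eBayes without trend, two-sided) on all 12 arrays with 4 group means, giving 8 residual degrees of freedom and a median standard error of 0.160. Benjamini-Hochberg adjustment covered all 22746 probe sets, with a threshold of 0.05. The number of arrays limits the precision. The fit was run on simulated data with independent noise and known changes, to check that it recovered their size. That simulation had no outlying array and no effect of age, so it cannot vouch for the p-values here. With 3 against 3 arrays no exact permutation p can fall below 0.1, so none is given.

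The comparison, the 25 gene lists and the naming rule were chosen with earlier results of these data known, and list values are descriptions without a test. Subgroups by role within the lists were described after their values were seen. Where a locus had several probe sets, the one with the highest mean stood for it. The rule named 71 genes: those past the threshold, the 15 largest differences per direction among genes whose groups' arrays do not overlap and with unadjusted p under 0.05, up to 4 such non-overlapping members per list by size, and CCA1, LHY, TOC1, GI, PIF4, PIF5 and IAA29; other members are named as examples of their lists.

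The labels put a replicate number on a shared day. Same-numbered Col arrays' deviations from the group means correlated at 0.062, 0.257 and -0.016, against -0.28 to 0.139 for other pairs. Alternatives were the day as a block, the 6 Col arrays alone, a trended prior, a filter on dim probe sets, other scalings, array weights, each array left out and, for lists, the mean of a locus's probe sets.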

Additional observations from a re-analysis of the deposited data

How the results depend on the processing

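With the day as a replicate block limma again passed 1 probe set, AT1G73480 (adjusted p = 0.0284). The count was 1 with the 6 Col arrays alone (0.00996) and 0 when the replicate block was added there, which took AT1G73480 to an adjusted p of 0.390, and 20 with array weights, among them PIF4, PIF5, CDF3, BBX24, GH3.5, SAUR9 and GA20OX1. Leaving out 1 array gave between 0 and 3: 0 when the array left out was replicate 1 or 3 of Col early, 1 or 2 of Col late, or 1 of CCA1-34 late; 1 without Col early replicate 2, which was GI (adjusted p = 0.0484); 2 without Col late replicate 3, which were PIF4 and PIF5; and 3 without CCA1-34 early replicate 2. The interaction count was 0 under every alternative run. Counts at an unadjusted p under 0.05, 606 higher and 624 lower, became 389 and 404 with the 6 Col arrays alone, 355 and 562 with the block there, 284 and 394 without dim probe sets, 1537 and 1438 with array weights, 1016 and 1194 without Col late replicate 2, and 403 and 335 without Col late replicate 3. Without Col early replicate 3, an alternative chosen after seeing the data, 2783 probe sets lay above and 2222 below every late array, against 1169 and 858 with it. LHY ranged from -0.77 to 0.66 when 1 array was left out, against -0.06 with all, and was above 0 when a Col array of 5 days was left out, 0.66 without the early one and 0.54 without the late one. LHY was the 1 named gene of 71 whose direction reversed under an alternative run. The cause of these changes was not tested.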
